A study of Mus musculus with 18 samples.

Results

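The fragments described here come from the mitochondrial rRNA transcription unit, the first stretch of the heavy-strand transcript of mitochondrial DNA. The unit is represented by 5 of the 1234 RNAs listed for mouse liver, namely the 12S-rRNA and the 16S-rRNA and the tRNAs that flank them, mature-mt_tRNA-Phe-GAA, mature-mt_tRNA-Val-TAC and mature-mt_tRNA-Leu-TAA (below Phe-GAA, Val-TAC and Leu-TAA). These rows were chosen by their place in the mitochondrial genome, not by their levels, and all 5 were followed through all 18 libraries. Male wild-type C57BL/6 mice, 8 weeks old at the start, were fed a high-cholesterol diet (HCD, 4 mice, numbered 15 to 18) or a low-cholesterol diet (LCD, 5 mice, numbered 1 to 5), and the labels give the feeding time as 9, 8 or 4 weeks in different fields. Liver RNA of 15 to 50 nt from each mouse was sequenced by PANDORA-seq, in which the kinase T4PNK repairs fragment ends and the demethylase AlkB removes methyl groups that stop reverse transcription, and by traditional-seq, which omits both enzymes. Each mouse therefore gave 1 library per method, which is 4 libraries per method for HCD and 5 for LCD.

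In mammals the unit is copied as 1 long precursor from the heavy-strand promoter, and the tRNAs mark the places where RNase P and the 3′ tRNA nuclease ELAC2 cut the rRNAs free. The 12S-rRNA becomes the RNA of the small subunit of the mitochondrial ribosome and the 16S-rRNA that of the large subunit, and in several mammals mt tRNA-Val itself is built into the large subunit. Human mitochondrial transcription can end inside the tRNA-Leu gene that follows the 16S gene, where the factor MTERF1 binds. The purine at position 9 of many mammalian mitochondrial tRNAs carries a methyl group, and AlkB acts on methyl groups of this kind.

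The 5 genes lie next to each other on the plus strand of chromosome M of GRCm38 (GENCODE M21), with almost no spacer. mt-Tf, the gene of mt tRNA-Phe-GAA, runs from 1 to 68, and 1 base separates it from mt-Rnr1, the 12S gene, at 70 to 1024. mt-Tv, the gene of mt tRNA-Val-TAC, follows without a gap at 1025 to 1093, then mt-Rnr2, the 16S gene, at 1094 to 2675 and mt-Tl1, the gene of mt tRNA-Leu-TAA, at 2676 to 2750. The rRNAs are 955 bases (12S) and 1582 bases (16S) long, and the tRNAs are 68, 69 and 75 bases long in the order of the unit. GC content was low throughout, at 30.9% for Phe-GAA, 35.8% for 12S, 39.1% for Val-TAC, 35.4% for 16S and 44.0% for Leu-TAA. Any fragment of 15 to 50 nt that maps inside one of these stretches is summed into that RNA's single value, so the position of a fragment within its RNA is not analysed here.

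The DNA sequences of the tRNA genes are shown because the tRNAs behaved differently from the rRNAs and from each other. The capitals mark the purine at position 9, counted from 1 at the 5′ end, and the anticodon. Position 9 is A9 in Phe-GAA, A9 in Val-TAC and G9 in Leu-TAA.
mt tRNA-Phe-GAA: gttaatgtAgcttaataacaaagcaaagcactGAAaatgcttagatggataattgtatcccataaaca
mt tRNA-Val-TAC: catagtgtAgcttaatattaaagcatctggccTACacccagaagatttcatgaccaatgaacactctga
mt tRNA-Leu-TAA: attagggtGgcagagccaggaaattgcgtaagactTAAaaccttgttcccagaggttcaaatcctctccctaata

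The junction between the rRNAs shows how closely the precursor is packed. It is given from 1005 to 1113 of chromosome M, plus strand, with the last 20 bases of 12S in lower case, the whole of Val-TAC in capitals and the first 20 bases of 16S in lower case.
12S, Val-TAC and 16S junction: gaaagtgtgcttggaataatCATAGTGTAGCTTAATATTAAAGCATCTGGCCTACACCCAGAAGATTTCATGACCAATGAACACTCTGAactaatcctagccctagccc

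Values are RPM, in which the reads of every library are brought to a common total, so an RNA class that takes more reads lowers all others. The read totals, inferred from the RPM value of 1 read, ranged from 1934330 to 25488322, and 1 read was worth 0.0392 to 0.517 RPM. The inferred reads of 89 of the 90 values of the unit were whole numbers. Intervals on single values are exact 95% Poisson intervals and cover counting error only. Of the miRNA reads, 83.9% to 92.5% in HCD PANDORA-seq, 77.7% to 86.7% in HCD traditional-seq, 69.8% to 86.7% in LCD PANDORA-seq and 62.0% to 77.6% in LCD traditional-seq came from the hepatocyte miRNAs mir-122, mir-192 and mir-148a, and the endothelial, blood-cell, biliary, stellate-cell and muscle lists each held at most 2.35% in any library. The white-blood-cell share counts 2 of the 3 miRNAs of its list, since mir-142 is listed as mir-142a and was left out. Since these are bulk livers, fewer cells of a type and less RNA per cell cannot be told apart. Diet comparisons within a method set separate animals against each other, and their p-values measure the spread between these mice. Comparisons that use both methods hold both libraries of each mouse. Those libraries were treated as unpaired, and the p-values ignore the pairing, unless a replicate block or a within-mouse change is named.

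All 5 RNAs together held a small share of the reads, and 16S held most of it. The unit took 0.155% to 0.295% of the reads assigned to listed RNAs in HCD PANDORA-seq, 0.0689% to 0.194% in HCD traditional-seq, 0.253% to 0.777% in LCD PANDORA-seq and 0.160% to 0.234% in LCD traditional-seq. Fragments of 16S made up 59.5% to 92.8% of the unit over the 18 libraries. Together, 12S and 16S gave between 0.213% and 1.04% of all rRNA reads, the rest being those of the other RNAs listed as rRNA.

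The 16S-rRNA was the most abundant member in every library. In HCD PANDORA-seq it measured 1585, 2103, 1241 and 1266 RPM in mice 15 to 18, and in HCD traditional-seq 641, 1313, 552 and 690 RPM. In LCD PANDORA-seq it measured 5032, 2502, 1783, 1666 and 1715 RPM in mice 1 to 5, and in LCD traditional-seq 1119, 1629, 1142, 1018 and 1286 RPM. PANDORA-seq gave more 16S than traditional-seq in 9 of 9 mice, and the ranges of the methods did not overlap in the LCD-fed mice. Mouse 1 stood apart in LCD PANDORA-seq.

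Fragments of 12S were far scarcer, and LCD PANDORA-seq held the most of them. In HCD PANDORA-seq 12S measured 53.2, 90.0, 8.91 and 26.0 RPM in mice 15 to 18, and in HCD traditional-seq 26.6, 82.1, 13.3 and 22.2 RPM. In LCD PANDORA-seq it measured 534, 156, 96.1, 84.1 and 136 RPM in mice 1 to 5, and in LCD traditional-seq 35.2, 41.9, 22.7, 19.4 and 43.0 RPM. The LCD PANDORA-seq libraries lay above all the others except that of HCD-fed mouse 16, whose 90.0 RPM exceeded the 84.1 RPM of LCD-fed mouse 4. The lowest value, 8.91 RPM in mouse 17, rested on 25 reads and had an interval from 5.77 to 13.2 RPM.

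Val-TAC, the tRNA between the rRNAs, was the second most abundant member in all libraries but that of LCD PANDORA-seq mouse 1, where 12S exceeded it, and varied most in LCD PANDORA-seq. It measured 170, 283, 69.5 and 136 RPM in HCD PANDORA-seq (mice 15 to 18) and 185, 303, 50.2 and 206 RPM in HCD traditional-seq. In LCD PANDORA-seq the values were 454, 1462, 138, 136 and 449 RPM in mice 1 to 5, against 388, 358, 420, 330 and 449 RPM in LCD traditional-seq. The LCD traditional-seq libraries thus lay close together, while those of LCD PANDORA-seq spread on both sides of them.

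Leu-TAA, which closes the unit, was highest in LCD traditional-seq. It measured 75.0, 41.7, 17.5 and 116 RPM in HCD PANDORA-seq (mice 15 to 18) and 47.7, 73.2, 43.6 and 97.3 RPM in HCD traditional-seq. In LCD PANDORA-seq it measured 157, 86.3, 104, 109 and 103 RPM in mice 1 to 5, against 202, 176, 257, 161 and 212 RPM in LCD traditional-seq. All 5 LCD traditional-seq values exceeded every value of the other groups.

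Phe-GAA, which opens the unit, was close to the detection limit in PANDORA-seq. In HCD PANDORA-seq it was read 2 times in mouse 15 and 3 times in mouse 18 (0.560 and 0.702 RPM). It was not read at all in mice 16 and 17, where a floor of 3 reads is worth 0.286 and 1.07 RPM. In HCD traditional-seq it measured 3.30, 6.48, 1.32 and 0.644 RPM (84, 49, 22 and 6 reads). In LCD PANDORA-seq it measured 1.19, 1.26, 0.0979, 1.34 and 1.42 RPM in mice 1 to 5 (3, 7, 1, 8 and 8 reads), against 7.75, 13.8, 4.21, 3.88 and 12.8 RPM in LCD traditional-seq (15, 70, 70, 65 and 49 reads). Pooled over libraries, 5 reads of Phe-GAA gave 0.237 RPM (interval 0.0768 to 0.552) in HCD PANDORA-seq and 161 reads gave 2.73 RPM (2.32 to 3.18) in HCD traditional-seq. The same sums were 27 reads or 0.904 RPM (0.596 to 1.32) in LCD PANDORA-seq and 269 reads or 6.08 RPM (5.37 to 6.85) in LCD traditional-seq. These pooled intervals cover counting error only and leave out the spread between mice. In LCD traditional-seq that spread was wider, from 3.88 to 13.8 RPM.

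**Figure D1:**
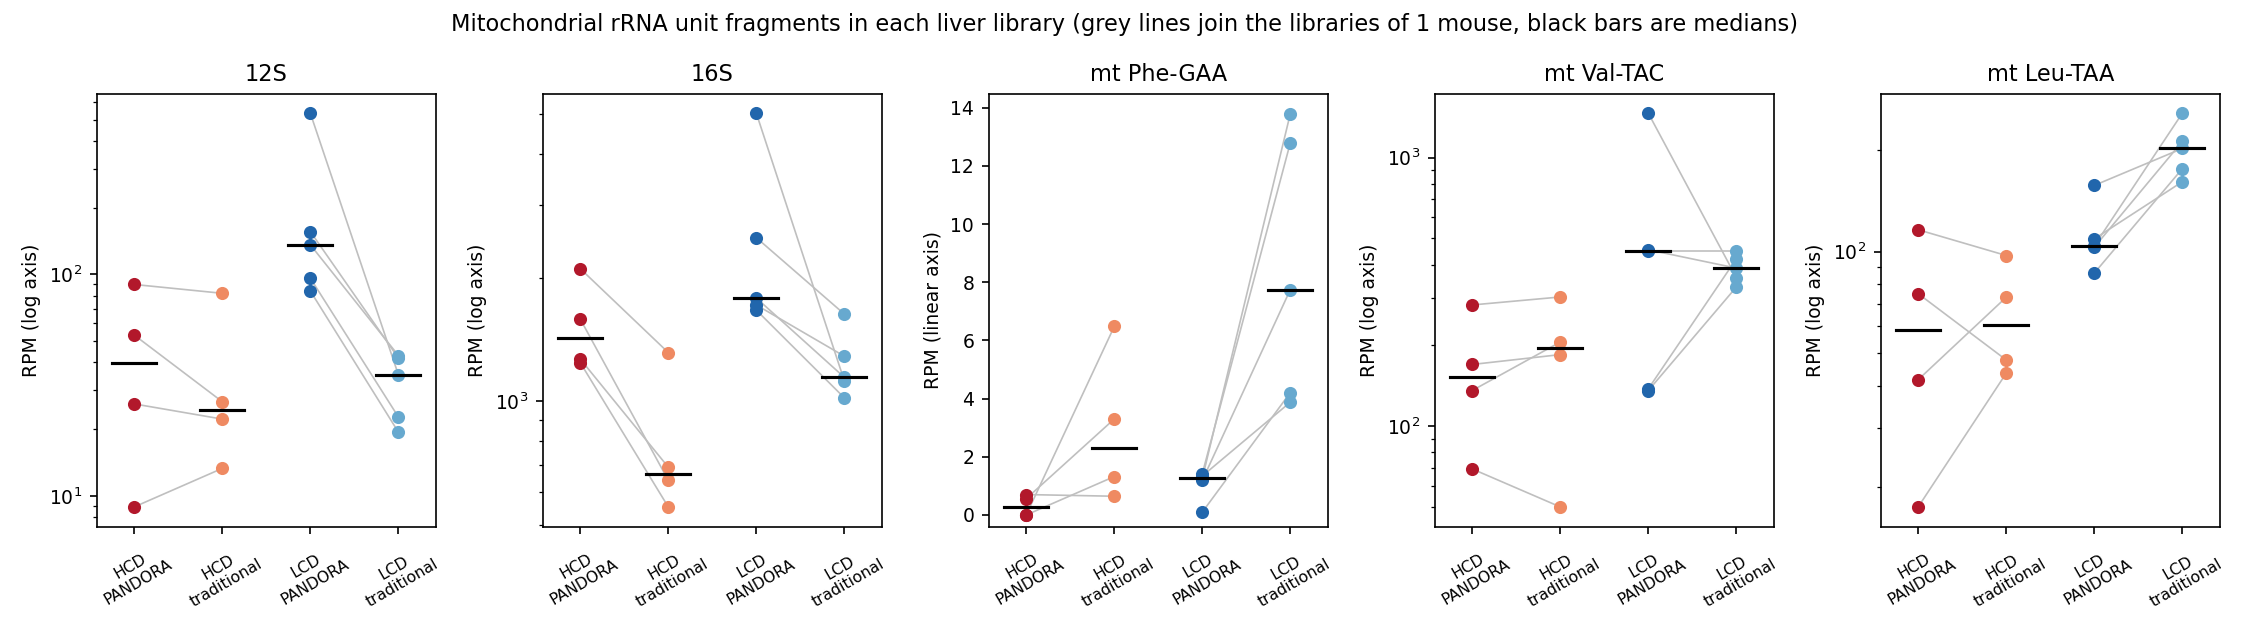
RPM of each RNA of the unit in HCD PANDORA-seq (4 libraries), HCD traditional-seq (4), LCD PANDORA-seq (5) and LCD traditional-seq (5), on a log axis except for Phe-GAA, which includes values of 0; points are libraries, black bars group medians, and grey lines join the libraries of 1 mouse. The 16S lines slope down to traditional-seq in all 9 mice, while the 12S lines are steep in the LCD-fed mice only and all 5 LCD traditional-seq values of Leu-TAA lie above the other groups.

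To compare levels between members, RPM was divided by the length of each RNA. Val-TAC had the highest level per base in 18 of 18 libraries, with a median of 2.22 RPM per base in HCD PANDORA-seq, 2.84 in HCD traditional-seq, 6.51 in LCD PANDORA-seq and 5.62 in LCD traditional-seq. The medians of 16S were 0.901, 0.421, 1.13 and 0.722 RPM per base in the same order of groups, and those of Leu-TAA were 0.778, 0.806, 1.39 and 2.70 RPM per base. 16S and Leu-TAA overlapped in each PANDORA-seq group, so their order cannot be given there, whereas Leu-TAA exceeded 16S within each of the 9 traditional-seq libraries, with ranges that overlapped over the 4 HCD livers and did not over the 5 LCD livers.

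The first genes of the unit had the lowest levels per base. For 12S the medians were 0.0415 RPM per base in HCD PANDORA-seq, 0.0255 in HCD traditional-seq, 0.142 in LCD PANDORA-seq and 0.0368 in LCD traditional-seq, and for Phe-GAA they were 0.00412, 0.0339, 0.0186 and 0.114 RPM per base. Phe-GAA lay below 12S in all 9 PANDORA-seq libraries, while in traditional-seq it lay above 12S in all 5 LCD libraries and in 3 of the 4 HCD libraries. 16S exceeded 12S per base in all 18 libraries, by 5.69-fold (LCD PANDORA-seq, mouse 1) to 84.0-fold (HCD PANDORA-seq, mouse 17). These are levels of fragments of 15 to 50 nt, and the intact rRNAs were not measured.

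**Figure D2:**
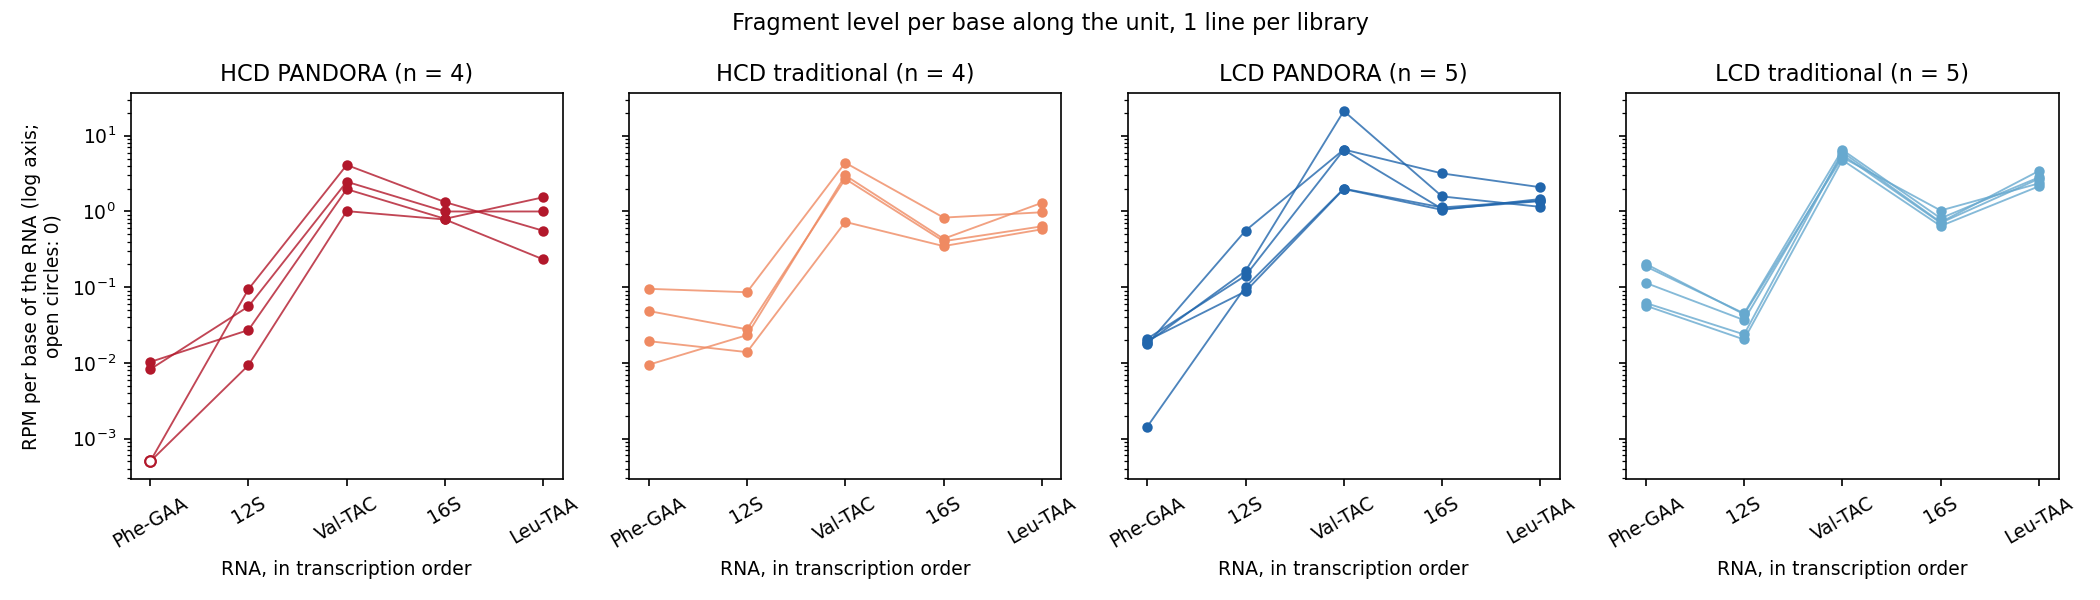
Level per base (RPM divided by the length of the RNA, log axis) of the 5 RNAs in their order on the transcript, 1 line per library and 1 panel per group; open circles at the bottom are values of 0. Phe-GAA and 12S sit lowest and Val-TAC highest in each of the 4 groups, and the step between Phe-GAA and 12S points up in all PANDORA-seq libraries but down in the LCD traditional-seq libraries.

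Which members PANDORA-seq detects more of was asked first in the LCD-fed mice, by limma on log2(RPM + 1) over 325 RNAs with Benjamini-Hochberg adjustment. 12S was higher in PANDORA-seq by 2.30 ± 0.45 on the log2 scale (SE, adjusted p = 0.000129), a 4.92-fold difference, and 16S by 0.91 ± 0.32 (adjusted p = 0.0128), a 1.88-fold difference. Each was higher in 5 of 5 mice, with folds within a mouse of 3.16 to 15.2 for 12S and 1.33 to 4.5 for 16S. Without PANDORA-seq mouse 1 the log2 differences were 1.86 for 12S (adjusted p = 0.000157) and 0.63 for 16S (adjusted p = 0.0285).

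The tRNAs of the unit did not share that increase. In the LCD-fed mice Phe-GAA was lower in PANDORA-seq by RPM, with a log2 difference of −2.10 ± 0.36 (SE, adjusted p = 2.87e-05) that stayed below 0 under TMM scaling (−1.18, adjusted p = 0.00136) and lay above 0 only under scaling by miRNA reads (1.2, adjusted p = 0.0577). Leu-TAA was lower by RPM, at −0.85 ± 0.29 (SE, adjusted p = 0.00985), but its difference was 0.54 (adjusted p = 0.160) under TMM and 3.77 (adjusted p = 7.36e-09) under scaling by miRNA reads. Val-TAC differed by −0.12 ± 0.51 (SE, adjusted p = 0.821) by RPM and by 1.28 (adjusted p = 0.0137) under TMM. The direction of the tRNAs thus depended on the scaling, whereas 12S and 16S stayed higher in PANDORA-seq under each of the 4 scalings tried.

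Most RNAs differed between the methods, which sets the background for these counts. By RPM 92.3% of the 325 RNAs were called, 21.8% higher and 70.5% lower in PANDORA-seq, with a median log2 difference of −2.63 over all of them, against 2 members higher, 2 lower and 1 not called. Relative to that median, the differences of the members were 4.93 for 12S, 3.54 for 16S, 2.51 for Val-TAC, 1.77 for Leu-TAA and 0.53 for Phe-GAA. The median of all RNAs moved to −1.66 under TMM and to 0.37 under scaling by miRNA reads. Ranges of RPM that did not overlap between the methods were found for 4 of the 5 members and for 87.7% of all RNAs tested.

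In the HCD-fed mice the method made less difference to 12S. It differed by 0.20 ± 0.66 on the log2 scale (SE, adjusted p = 0.789, limma over 312 RNAs), with folds of PANDORA-seq over traditional-seq of 2.0, 1.1, 0.670 and 1.17 in mice 15 to 18. 16S was higher in PANDORA-seq by 1.01 ± 0.46 (SE, adjusted p = 0.0440), or 2.01-fold, in 4 of 4 mice with folds of 1.60 to 2.47. This call was lost without PANDORA-seq mouse 15 or 16 or without traditional-seq mouse 15, 17 or 18, when the adjusted p reached up to 0.159, and the difference stayed between 0.85 and 1.27. Val-TAC differed by −0.09 ± 0.56 (adjusted p = 0.889) and Leu-TAA by −0.29 ± 0.58 (adjusted p = 0.647), and under TMM these values were 0.75 and 0.54. Phe-GAA had too few values of at least 1 RPM to be tested. Over all RNAs tested, 18.3% were higher and 61.5% lower, with a median log2 difference of −1.84, so 1 member higher and 3 not called stand against 79.8% of RNAs called. RPM ranges were separate between the methods for 71.8% of the RNAs tested and for 0 of the members, including Phe-GAA, whose value of 0.702 RPM in PANDORA-seq exceeded that of 0.644 RPM in traditional-seq in mouse 18.

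**Figure D3:**
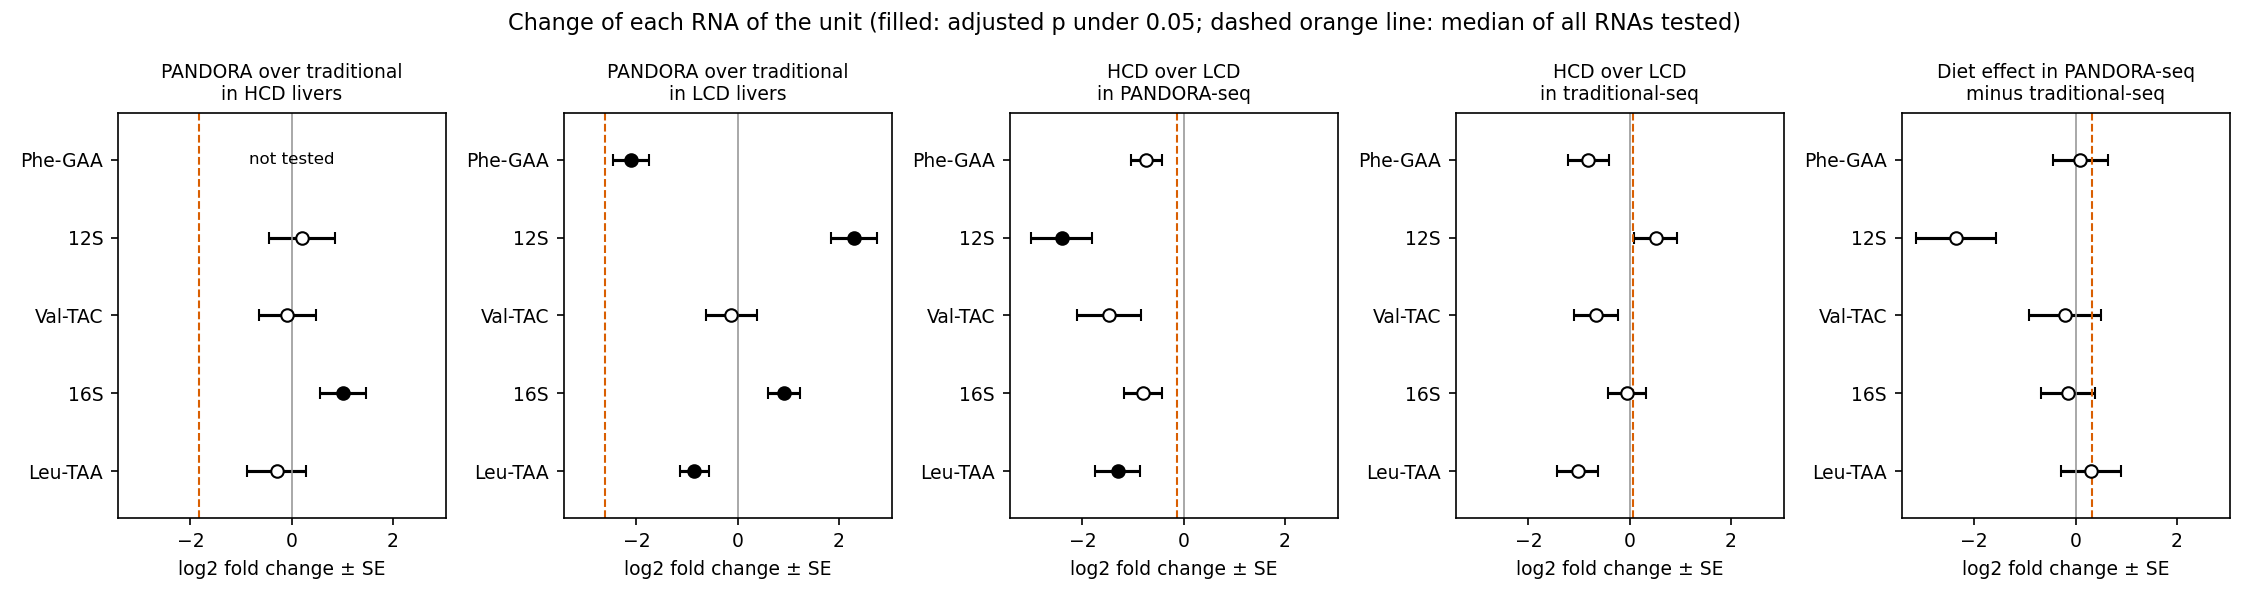
Log2 fold change ± SE (limma) of each RNA of the unit for PANDORA-seq over traditional-seq in HCD and in LCD livers (RPM as deposited), for HCD over LCD in each method and for the difference between those diet effects (TMM-scaled); filled points have an adjusted p under 0.05 and the dashed line is the median of all RNAs tested. 12S stands at 2.30 in the LCD method panel and at −2.41 in the PANDORA-seq diet panel; the values below 0 of Val-TAC and Leu-TAA in the method panels lie above 0 under TMM, and that of Phe-GAA under scaling by miRNA reads.

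The diets were compared within each method after TMM scaling, the normalisation named in the study's methods. In PANDORA-seq 12S was lower in HCD livers, with a log2 difference from LCD livers of −2.41 ± 0.61 (SE, adjusted p = 0.0141, limma over 244 RNAs), or 5.30-fold. The mean was 44.5 ± 35.4 RPM in HCD livers (SD, n = 4) and 201 ± 188 RPM in LCD livers (SD, n = 5). The call held in each of the 9 fits without 1 library, where the difference ranged from −2.98 to −1.89 and the adjusted p from 0.00230 to 0.0437. It was lost when RNAs below the 1 RPM filter were tested as well (adjusted p = 0.0666 over 956 RNAs).

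Of the other members, Leu-TAA alone passed in HCD PANDORA-seq, and its call depended on single libraries. Leu-TAA was lower after TMM, with a log2 difference of −1.30 ± 0.44 (SE, adjusted p = 0.0444), but the call was lost with RPM as deposited (−1.10, adjusted p = 0.139) and in 8 of the 9 fits without 1 library, namely every one but that without HCD mouse 18, with adjusted p up to 0.152. 16S differed by −0.80 ± 0.38 (adjusted p = 0.144) and Val-TAC by −1.47 ± 0.64 (adjusted p = 0.104), neither of which passed. Phe-GAA differed by −0.74 ± 0.30 (adjusted p = 0.0880), but it entered the test only through 4 LCD libraries at or above 1 RPM and so had to be lower in HCD. Among all RNAs tested 23.8% were called, 14.3% lower and 9.43% higher, around a median log2 difference of −0.14, and 2 members were called, both lower. By RPM as deposited no member had ranges that were separate between the diets, against 20.9% of the RNAs tested.

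Other properties of the PANDORA-seq libraries differed between the diets in the same comparison. Reads assigned to none of the listed RNAs made up 13.6% to 18.9% in HCD livers and 20.3% to 22.3% in LCD livers, and miRNAs took 7.56% to 15.8% of the listed reads in HCD livers and 2.04% to 5.58% in LCD livers. Scaling by miRNA reads accordingly moved the median of all RNAs to −1.27, and 12S to −3.82 (adjusted p = 9.67e-05) and 16S to −2.30 (adjusted p = 0.00241). The part of these library properties, and of the hepatocyte miRNA share given above, in the lower level of 12S was not tested.

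In traditional-seq no difference in 12S between the diets passed the test. Its log2 difference was 0.51 ± 0.42 (SE, adjusted p = 0.548, limma over 349 RNAs) after TMM and −0.11 by RPM as deposited, with means of 36.0 ± 31.2 RPM in HCD livers (SD, n = 4) and 32.5 ± 10.9 RPM in LCD livers (SD, n = 5). 16S differed by −0.05 ± 0.38 (adjusted p = 0.964) after TMM and by −0.70 (adjusted p = 0.176) by RPM. 0 of the 5 members passed after TMM, whereas 9.74% of all RNAs tested were called, 3.44% higher and 6.30% lower, around a median of 0.06, and at an unadjusted p under 0.05 there was 1 member, Leu-TAA.

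By RPM, 2 of the 3 tRNAs of the unit, Leu-TAA and Val-TAC, were called lower in HCD traditional-seq, and neither was after TMM. Leu-TAA differed by −1.03 ± 0.40 (SE, adjusted p = 0.118) after TMM and by −1.67 (adjusted p = 0.00397) by RPM as deposited, Val-TAC by −0.67 (adjusted p = 0.411) and −1.31 (adjusted p = 0.0492), and Phe-GAA by −0.82 (adjusted p = 0.255) and −1.36 (adjusted p = 0.0643). The RPM of all 4 HCD livers lay below those of all 5 LCD livers for Leu-TAA and for Val-TAC, a separation seen in 18.9% of the RNAs tested. By RPM the median of all RNAs was itself −0.53, and 3 RNAs were called higher and 57 lower, against 12 higher and 22 lower after TMM.

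Whether the diet effect differed between the methods was tested over all 18 libraries. For 12S the diet effect in PANDORA-seq minus that in traditional-seq was −2.36 ± 0.79 on the log2 scale (SE, adjusted p = 0.0864, limma over 365 RNAs), against a median of 0.33 over all RNAs. Both libraries of a mouse were made from the same RNA, and with the mouse as a replicate block the same difference had an SE of 0.51 and an adjusted p of 0.00538. With the block 55 RNAs were called, 40 higher and 15 lower, against 20 without it, which is 5.48% of those tested (2.74% higher and 2.74% lower). 0 of the 5 members passed without the block, at an unadjusted p under 0.05 only 12S did, and with the block 12S passed. For the other members the differences were −0.15 (16S), 0.10 (Phe-GAA), −0.21 (Val-TAC) and 0.30 (Leu-TAA), with adjusted p between 0.860 and 0.952, and none of these 4 passed with the block either. A negative difference was not particular to 12S. Without the block 18S was at −3.07 (limma, adjusted p = 0.00175), and the other 5 of the 6 other rRNAs did not pass. Of the 19 other mitochondrial tRNAs 1 was called lower, 1 higher and 17 were not called.

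Ratios of members within a library do not depend on the scaling, except those of Phe-GAA, to which 1 RPM was added. In HCD PANDORA-seq there were 29.8, 23.4, 139 and 48.7 RPM of 16S per RPM of 12S in mice 15 to 18, and in HCD traditional-seq 24.1, 16, 41.5 and 31.1. In LCD PANDORA-seq the ratio was 9.42, 16, 18.5, 19.8 and 12.6 in mice 1 to 5, and in LCD traditional-seq 31.8, 38.8, 50.3, 52.3 and 29.9. In the HCD-fed mice PANDORA-seq gave the higher ratio 4 times of 4, and in the LCD-fed mice the lower ratio 5 times of 5. The 4 HCD-fed mice had the same order by both methods, mouse 17 highest and mouse 16 lowest, and in the LCD-fed mice the order was shared but for mice 1 and 5, the lowest by either method.

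By two-sided exact permutation tests over 9 ratios and 4 comparisons, 16S/12S differed in 2 of the 4. In LCD livers its log2 was 3.88 ± 0.44 in PANDORA-seq and 5.31 ± 0.37 in traditional-seq (SD, n = 5 each), a difference of −1.42 (exact p = 0.00794, adjusted p = 0.0357). Between the diets in PANDORA-seq it was 5.54 ± 1.14 in HCD livers (n = 4) and 3.88 ± 0.44 in LCD livers (n = 5), a difference of 1.66 (exact p = 0.00794, adjusted p = 0.0357). In HCD livers it did not differ between PANDORA-seq and traditional-seq (5.54 ± 1.14 and 4.73 ± 0.58, difference 0.81, exact permutation p = 0.286), nor between HCD and LCD livers in traditional-seq (4.73 ± 0.58 and 5.31 ± 0.37, difference −0.58, exact permutation p = 0.127), at a threshold of 0.05. The p of 0.00794 is the smallest that 5 against 5 or 5 against 4 libraries allow, while 4 against 4 cannot go below 0.0286. Leaving out 1 library can raise the smallest p that a comparison allows, or leave fewer tests at that p for the adjustment. A call lost in this way does not show that it depends on that library. The diet call of 16S/12S in PANDORA-seq was lost in 14 of 18 fits without 1 library, namely without any 1 of the 9 PANDORA-seq libraries or of the 5 LCD traditional-seq libraries, with a difference of 1.13 to 1.99 and an adjusted p of up to 0.0935 (exact permutation). The method call in LCD livers was lost without any 1 of the 5 LCD traditional-seq libraries (difference −1.53 to −1.26). In those 5 fits 0 of the 36 tests passed, with a lowest adjusted p of 0.0571 and 10 to 12 tests at an unadjusted p under 0.05 (exact permutation). Since both libraries of a mouse share RNA, the method comparisons were also made within mice as a replicate block by exact sign changes, where 0 of 18 ratio tests passed and 16S/12S in LCD livers had p = 0.0625 (adjusted p = 0.188, exact permutation), the smallest p that 5 mice allow.

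The within-mouse change of 16S/12S between the methods was 0.81 ± 0.64 on the log2 scale in HCD-fed mice (SD, n = 4, between 0.30 and 1.75) and −1.42 ± 0.20 in LCD-fed mice (SD, n = 5, between −1.76 and −1.25). These changes differed by 2.24 with an exact permutation p of 0.00794, and after adjustment over the 9 ratios p was 0.0714, which misses the threshold of 0.05. All 4 HCD-fed mice lay above 0 and all 5 LCD-fed mice below.

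**Figure D4:**
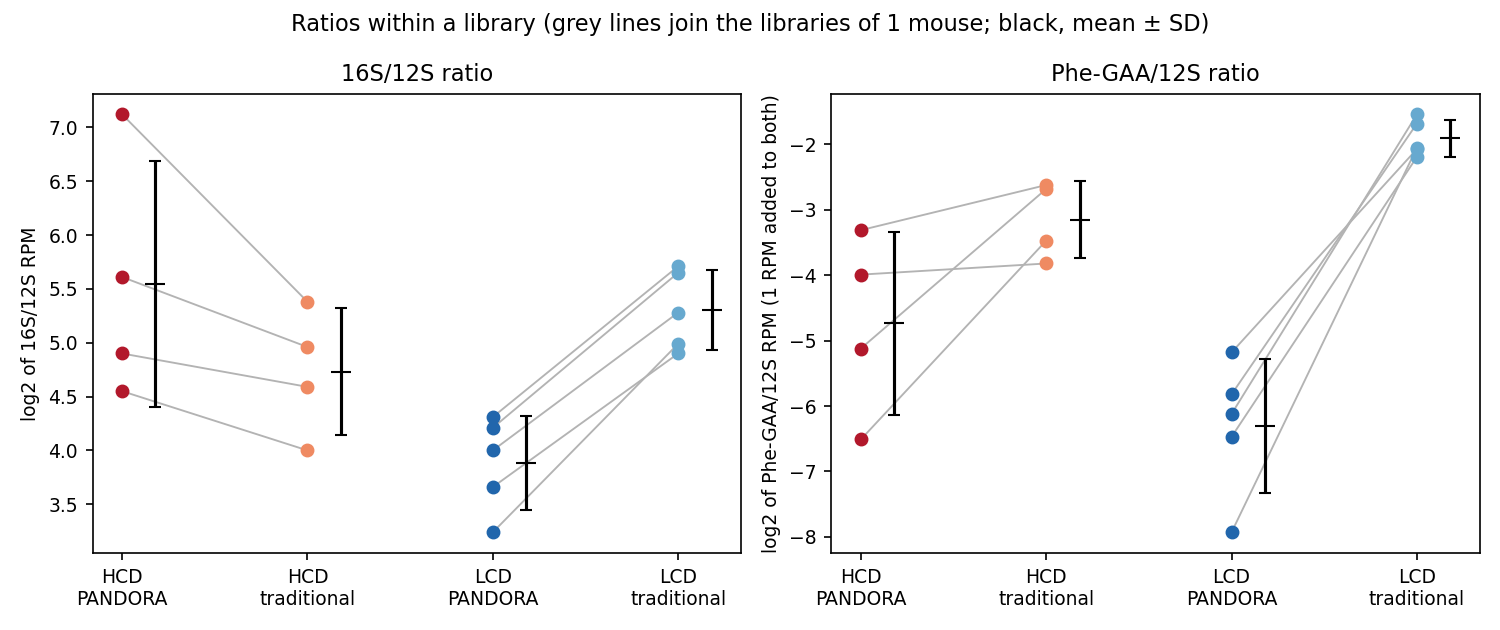
Log2 of the 16S/12S ratio and of the Phe-GAA/12S ratio (1 RPM added to both terms) in each library; points are libraries, grey lines join the libraries of 1 mouse, and black marks give the mean ± SD. The 16S/12S lines slope down in the 4 HCD-fed mice and up in the 5 LCD-fed mice between PANDORA-seq and traditional-seq, and the LCD PANDORA-seq libraries lie below all 9 traditional-seq libraries except HCD-fed mouse 16 and below all 4 HCD PANDORA-seq libraries.

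The ratio of Phe-GAA to 12S, neighbours on the precursor, differed in 2 of the 4 comparisons. With 1 RPM added to both because of the values of 0, log2 Phe-GAA/12S in LCD livers was −6.30 ± 1.02 in PANDORA-seq and −1.90 ± 0.28 in traditional-seq (SD, n = 5 each), a difference of −4.40 (exact permutation p = 0.00794, adjusted p = 0.0357) without overlap. In traditional-seq it was −3.15 ± 0.59 in HCD livers (n = 4) and −1.90 ± 0.28 in LCD livers (n = 5), a difference of −1.25 (exact permutation p = 0.00794, adjusted p = 0.0357). In HCD livers the method difference was −1.58 with overlap (exact permutation p = 0.0857, adjusted p = 0.171), and between the diets in PANDORA-seq it was 1.57 (exact permutation p = 0.103, adjusted p = 0.177), the opposite sign to traditional-seq. The diet call in traditional-seq was lost without any 1 of its 9 libraries (adjusted p up to 0.114), and the method call in LCD livers without any 1 of the LCD traditional-seq libraries (adjusted p up to 0.0571) or with the replicate block (adjusted p = 0.188, exact permutation). The PANDORA-seq values rest on at most 8 reads of Phe-GAA per library. The added 1 RPM exceeds Phe-GAA itself in HCD PANDORA-seq (0 to 0.702 RPM) and is close to most values in LCD PANDORA-seq (0.0979 to 1.42 RPM). The PANDORA-seq ratios and the sign of their diet difference therefore largely follow 12S.

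The ratio of Leu-TAA to 16S, the RNA it borders, differed in 1 of the 4 comparisons. In LCD livers log2 Leu-TAA/16S was −4.39 ± 0.50 in PANDORA-seq and −2.62 ± 0.38 in traditional-seq (SD, n = 5 each), a difference of −1.77 (exact permutation p = 0.00794, adjusted p = 0.0357). The call was lost without any 1 of the LCD traditional-seq libraries, where fewer tests reached the smallest p and the adjusted p rose. It was also lost with the replicate block (adjusted p = 0.188, exact permutation), where 5 mice cannot go below p = 0.0625. In HCD livers the difference was −1.31 (exact permutation p = 0.143), and between the diets it was −0.52 in PANDORA-seq and −0.98 in traditional-seq (adjusted p = 0.467 and 0.0857, exact permutation). Val-TAC/16S passed in none of the 4 comparisons at an adjusted p of 0.05, with differences between −1.10 and −0.62 and exact permutation p between 0.103 and 0.389.

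Set against the cytosolic rRNAs, all 4 differences of 12S/18S and all 4 of 16S/28S were below 0, and at an adjusted p under 0.05 those of 12S/18S passed in 3 comparisons and those of 16S/28S in none. Log2 12S/18S differed by −2.18 between PANDORA-seq and traditional-seq in LCD livers, by −1.98 between HCD and LCD livers in PANDORA-seq and by −2.67 between the diets in traditional-seq (exact permutation p = 0.00794 and adjusted p = 0.0357 for each), and by −1.49 between the methods in HCD livers (adjusted p = 0.171). These calls were lost without 1 library as those of 16S/12S and Phe-GAA/12S were (adjusted p up to 0.114), with the same limit on what a loss shows. The method call was also lost with the replicate block (adjusted p = 0.188, exact permutation), where 5 mice cannot go below p = 0.0625. The difference between the diets in traditional-seq accompanied the level of 18S itself, which averaged 25213 ± 15412 RPM in HCD livers (SD, n = 4) and 3721 ± 427 RPM in LCD livers (SD, n = 5) in traditional-seq. Log2 16S/28S differed by −0.24 (HCD livers, adjusted p = 0.623) and −0.25 (LCD livers, adjusted p = 0.516) between the methods, by −0.72 between the diets in PANDORA-seq (unadjusted p = 0.0476, adjusted p = 0.122) and by −0.73 in traditional-seq (unadjusted p = 0.0317, adjusted p = 0.0952, all by exact permutation).

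As shares of the other mitochondrial tRNAs, the tRNAs of the unit showed no difference that passed. They held 2.97% to 10.5% of all mitochondrial tRNA reads in HCD PANDORA-seq, 5.86% to 9.56% in HCD traditional-seq, 3.62% to 10.2% in LCD PANDORA-seq and 2.89% to 5.36% in LCD traditional-seq. Over the 3 tRNAs and 4 comparisons, log2 ratios to the sum of the other 19 differed by between −1.70 and 1.22, and the lowest adjusted p was 0.0857 (exact permutation).

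The other 19 mitochondrial tRNAs, 11 further along the heavy strand and 8 from the light strand, went both ways between the methods by RPM. In LCD livers 4 heavy-strand tRNAs were higher and 2 lower, while 1 light-strand tRNA was higher and 4 were lower. Of the tRNAs of the unit 2 were called lower in LCD livers and none higher by RPM, but under TMM Val-TAC was called higher. In HCD livers 6 of the 19 were higher and 2 lower in PANDORA-seq (median log2 difference 0.25), and in LCD livers 5 were higher and 6 lower (median −0.05, or 1.15 under TMM). The 6 other rRNAs (18S, 28S, 5.8S, 45S, 5S and 4.5S) were all higher in PANDORA-seq in LCD livers, with log2 differences of 0.65 to 4.52, and 5 of 6 were higher in HCD livers. 12S and 16S thus went with the other rRNAs in LCD livers, where all 8 rRNAs were higher, and 12S did not pass in HCD livers.

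Between the diets, some of the 19 other mitochondrial tRNAs were lower in HCD livers and none was called higher. After TMM, 8 of the 19 were lower, 0 higher and 11 not called in PANDORA-seq (6 of the 11 heavy-strand and 2 of the 8 light-strand tRNAs were lower, median log2 difference −1.52 beside −0.14 for all RNAs), where 14.3% of all RNAs were called lower. In traditional-seq 5 of the 19 were lower, 0 higher and 14 not called (1 heavy-strand and 4 light-strand were lower, median −0.98 beside 0.06), where 6.30% of all RNAs were called lower. Among the other rRNAs 2 were higher and 0 lower in PANDORA-seq, 5S at 1.0 (adjusted p = 0.0402) and 45S at 1.36 (adjusted p = 0.0176), and 1 was higher in traditional-seq, 18S at 3.19 (adjusted p = 0.000364). These higher values hold after TMM and by RPM, while under scaling by miRNA reads 0 of the 6 were higher in PANDORA-seq. 12S, at −2.41, was the only rRNA called lower in HCD PANDORA-seq after TMM, and with scaling by miRNA reads 16S and 3 of the 6 other rRNAs were called lower as well.

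**Figure D5:**
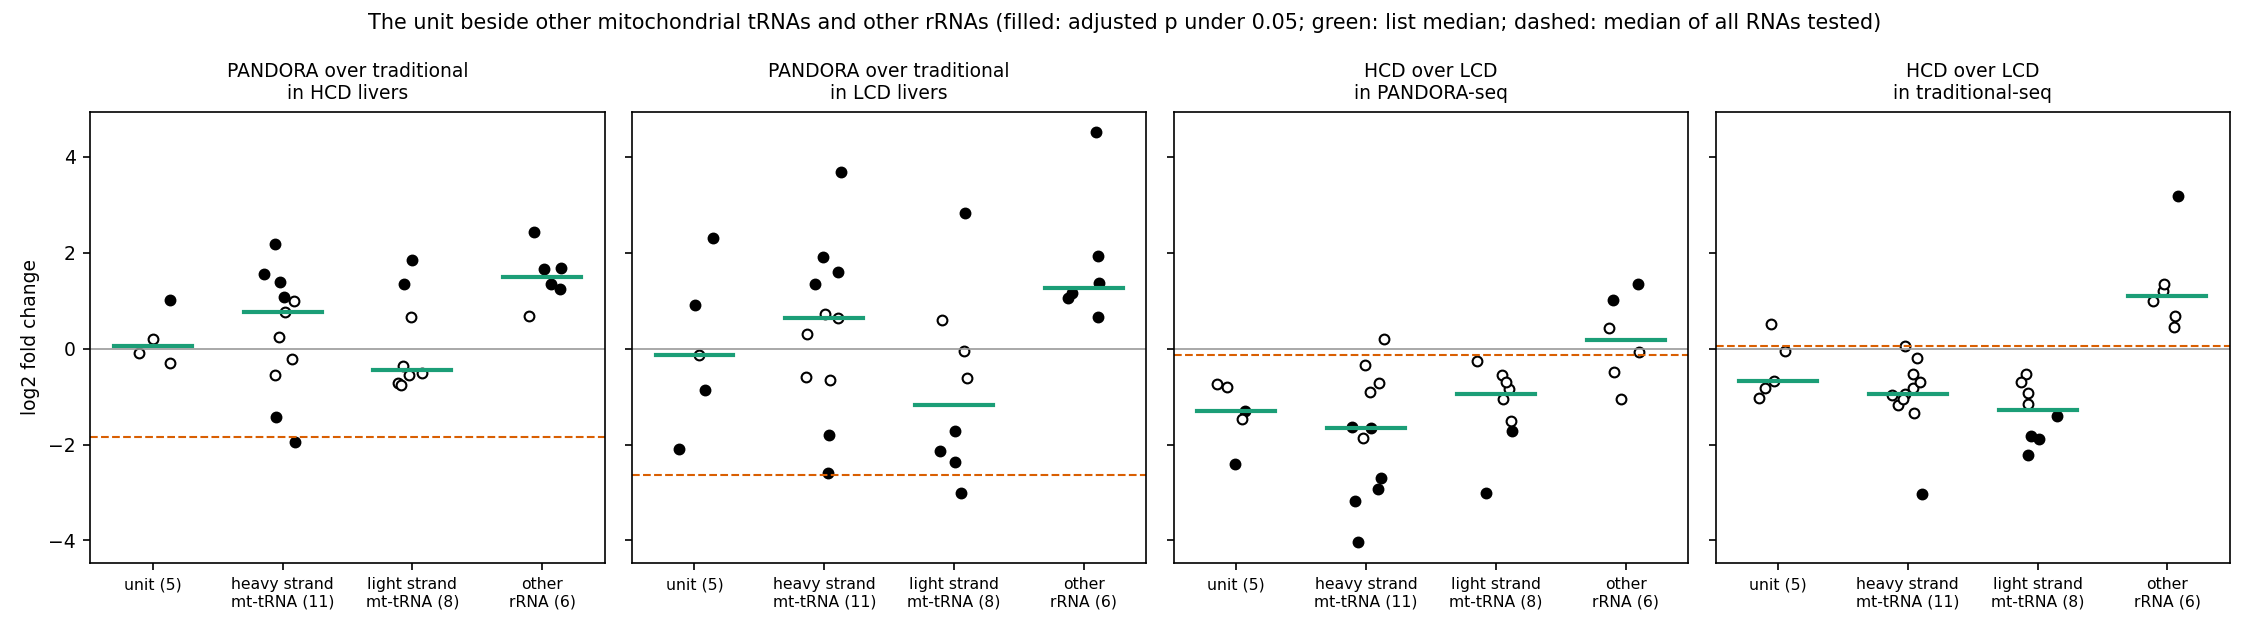
Log2 fold changes (limma) of the RNAs of the unit, the other heavy-strand and light-strand mitochondrial tRNAs and the other rRNAs for PANDORA-seq over traditional-seq (RPM as deposited) and HCD over LCD (TMM-scaled); 1 point per RNA, filled at an adjusted p under 0.05, with the list median in green and the median of all RNAs tested dashed. In the method panels the median of each list lies above the dashed line (Phe-GAA was not tested in HCD livers) and only the other rRNAs lie wholly above 0 (under TMM the median of the 19 other mitochondrial tRNAs moves above 0), and in the diet panels the mitochondrial tRNAs lie mostly below 0.

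Across the 18 libraries, the RNA whose log2(RPM + 1) was most like that of 12S was 16S (Pearson r = 0.852 among 170 RNAs with at least 1 RPM in every library), followed by mt tRNA-Met-CAT (0.849) and the cytosolic tRNA-Ile-TAT (0.844). For 16S the nearest were 12S, the cytosolic tRNA-iMet-CAT (0.827) and mt tRNA-Thr-TGT (0.804). After the 4 group means were removed, 12S and 16S still had r = 0.879. For 12S the values were then 0.722 with mt tRNA-Met-CAT and 0.631 with the cytosolic tRNA-Ile-TAT. For 16S they were 0.608 with the cytosolic tRNA-iMet-CAT and 0.376 with mt tRNA-Thr-TGT. These values are descriptions over libraries that share the depth scaling, and both libraries of a mouse enter.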

How the data were processed

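Reads had been assigned by the authors with SPORTS (version 1.1.0, 1 mismatch, mouse build mm10), and the deposited table gives RPM for 1234 RNAs in 18 libraries. Cells given as NA (11673) were read as 0. Reads that match several RNAs appear as fractions, so counts could not be recovered for the table (67.6% to 81.5% of values below 3 RPM per library were whole reads within 0.02) and no count test was run. The treatment of reads shared with nuclear copies of mitochondrial DNA is not given in the sources used.

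Each RNA was tested on log2(RPM + 1), which understates changes of rare RNAs, with limma 3.58.1 (R 4.3.3, mean-variance trend). An RNA entered if 5 libraries (method, LCD) or 4 libraries reached 1 RPM, with Benjamini-Hochberg adjustment over all of them and a threshold of 0.05. Method comparisons used RPM as deposited. Diet comparisons and their difference between methods used TMM computed by own code (trims of 30% by ratio and 5% by level). For log2 ratios the test was an exact permutation of the libraries, two-sided, with adjustment over 36 tests or, within mice, over 9.

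The 5 members are always named, the other rRNAs serve as comparators, the other 19 mitochondrial tRNAs are given as counts, and for 12S and 16S the 3 most similar RNAs. Members and lists were chosen with earlier results of these data known. The replicate numbers pair the libraries because the study's methods state that both were made from the same eluted RNA. As a check, the 2 libraries of each mouse were compared after subtracting group means, and r was 0.0920 to 0.497 (above 0.1 for 8 of 9 mice, 171 RNAs). The PANDORA-seq library was most like the traditional-seq library of the same mouse in 5 of 9 mice. For mice 1, 3, 4 and 18 it was most like that of another mouse on the same diet. The check alone therefore does not establish the pairing. Genes and sequences are from GENCODE M21 on GRCm38. Alternatives were other scalings, filters, a pseudocount of 0.1, the block, 1 fit over all libraries and leaving out each library, and, chosen after seeing the data, precision weights and TMM together with the block. The scripts (Python 3.11.15, numpy 2.4.6, pandas 2.3.3, matplotlib 3.10.9) were tested on simulated data.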

Additional observations from a re-analysis of the deposited data

Results flagged for a closer look

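In 56 groups of 4 or 5 values (the RPM of the members and the 9 log2 ratios), 8 values, from 5 libraries, lay far from the rest of their group by Dixon's test, where chance gives about 1 in 20. LCD PANDORA-seq mouse 1 stood apart for 12S at 534 RPM (the other 4 at 84.1 to 156), for 16S at 5032 RPM (1666 to 2502) and for log2 16S/28S at −6.19 (−7.65 to −7.40). LCD PANDORA-seq mouse 2 stood apart for Val-TAC at 1462 RPM (136 to 454) and for log2 Leu-TAA over the other mitochondrial tRNAs at −7.31 (−6.17 to −5.74). LCD PANDORA-seq mouse 3 had Phe-GAA at 0.0979 RPM, which is 1 read (1.19 to 1.42 in the others). In traditional-seq, LCD mouse 2 had log2 Val-TAC/16S at −2.19 (−1.63 to −1.44), and HCD mouse 18 had log2 Phe-GAA over the other mitochondrial tRNAs at −10.77 (−9.43 to −9.24).

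For 12S the diet effect in PANDORA-seq minus that in traditional-seq was −2.36 with the mouse as a replicate block (limma, adjusted p = 0.00538, against 0.0864 without it). Among the other rRNAs, 18S was at −3.07 without the block (limma, adjusted p = 0.00175). The change of log2 16S/12S between the methods differed by 2.24 between HCD-fed and LCD-fed mice, since it was above 0 in all 4 HCD-fed mice and below 0 in all 5 LCD-fed mice (exact permutation p = 0.00794, adjusted p = 0.0714).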

How the results depend on the processing

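Among RNAs tested by limma, 192 were called for the methods in LCD livers under scaling by miRNA reads (300 by RPM; 70.3% and 23.7% of the calls higher), and in HCD livers 60% and 22.9% of the calls were higher. For the diets in PANDORA-seq 113 were called under scaling by miRNA reads and 11 without the filter (58 as reported), and 0 and 0 of these were higher, against 39.7% as reported, 50.9% by RPM as deposited and 63.5% with all 18 libraries in 1 fit. In traditional-seq the count was 60 by RPM as deposited, 52 by miRNA reads, 56 by listed reads and 10 without the filter (34 as reported; 5% of the calls higher by RPM, 35.3% as reported). For the difference between the diet effects it was 53 by RPM, 13 by miRNA reads, 13 with a pseudocount of 0.1, 9 without the filter and 55 with the replicate block (20 as reported, 50.0% higher, against 81.1% by RPM and 72.7% with the block).

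In LCD livers the method difference of Phe-GAA was 1.20 under scaling by miRNA reads, that of Val-TAC 4.52 and that of Leu-TAA 3.77, and under TMM, with or without the replicate block, Val-TAC was at 1.28 and Leu-TAA at 0.54. In HCD livers scaling by miRNA reads gave 2.88 for Val-TAC, 2.64 for Leu-TAA and 3.06 for 12S (adjusted p = 0.00356), TMM with the replicate block gave 1.01 for 12S (adjusted p = 0.0403), and without the filter 16S was at 1.01 (adjusted p = 0.0886). For the diets in PANDORA-seq 12S was at −2.41 without the filter (adjusted p = 0.0666) and 16S at −2.30 by miRNA reads (adjusted p = 0.00241). The difference between the diet effects of 12S was −3.81 by miRNA reads (adjusted p = 0.0152) and −2.36 with the replicate block (adjusted p = 0.00538). Why these values moved was not tested, apart from the larger number of RNAs tested without the filter.

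Leaving out 1 library gave 24 to 56 calls for the diets in PANDORA-seq (24 without HCD mouse 17 or LCD mouse 5, 38 without LCD mouse 2), 14 to 47 in traditional-seq (14 without HCD mouse 17, 21 without LCD mouse 4) and 1 to 36 for the difference between the diet effects, where 1 was left without HCD traditional-seq mouse 16, 4 and 3 without HCD traditional-seq mice 15 and 18, 3 to 7 without any 1 LCD traditional-seq library, 13 without LCD PANDORA-seq mouse 2 or 4, and 36 without LCD PANDORA-seq mouse 3. 16S between the methods in HCD livers ranged from 0.85 to 1.27, and the 12S difference between the diet effects from −2.86 to −1.89. Of the 36 ratio tests 8 passed, 0 to 6 without 1 library, 0 with medians (13 at an unadjusted p under 0.05) and 0 of 18 with the replicate block (0 unadjusted), where 5 mice cannot go below 0.0625. With the replicate block no other limma call of a member changed. Of 291 single values under other settings 251 stayed on the same side of the threshold, as did 903 of 987 with 1 library left out. Among these no called value changed direction, while values that were not called could change direction and still be counted. A count test was not run because counts could not be recovered. Phe-GAA in PANDORA-seq, with 0 to 8 reads a library, is limited by depth.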
